A study of Caenorhabditis elegans with 36 samples.

Results

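The 6 libraries labelled *eat-2* were compared with the 6 libraries labelled wild type 25 °C, 12 of the 36 libraries of a *C. elegans* RNA-seq series. The libraries were taken by their labels, the pair of groups was picked because it was known to be the most alike in the series, and genes were kept where at least 6 of the 12 libraries had 10 or more counts, which left 16298 of 46093 genes. The comparison asks how far worms labelled as carrying a feeding mutation differ in their messenger RNA from wild-type worms. Of the 16298 genes, 47 were called different at an adjusted p below 0.01 (0.288%), 15 of them higher (0.092%) and 32 lower (0.196%) in the libraries labelled *eat-2*. The transcripts of *ife-2* and *haf-6* fell by 9.80-fold and 5.63-fold, and that of the pseudogene C03G6.18 was present in the libraries labelled *eat-2* and near 0 in all others.

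Polyadenylated RNA came from whole worms grown on OP50 bacteria. The other 24 libraries carry the labels *glp-1*, *osm-5*, *ife-2* and wild type 20 °C, with 6 libraries each. The temperature tag is 20 °C for *eat-2* and 25 °C for the wild type compared here, whereas the growth conditions in the labels are 20 °C for every library. Genotype and temperature, as labelled, therefore differ together between these groups and cannot be told apart. The stage is given both as young adults before they are fertile and as adults on day 1. In the methods, wild type is the N2 strain and the *eat-2* and *ife-2* strains carry the alleles *ad1116* and *ok306*, but only the labels tie these libraries to those strains. Each mutant is thus a single strain, and no label says whether the 6 libraries of a group came from separate cultures, so the p-values measure only the spread between these libraries.

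*eat-2* encodes a subunit of a nicotinic acetylcholine receptor that acts in pharyngeal muscle. Its mutants pump food slowly, take in less of it and are used as a genetic model of dietary restriction. *ife-2* encodes an isoform of eIF4E, the factor that binds the cap of messenger RNA to start translation, and *haf-6* encodes an ABC transporter of the HAF family that is needed for efficient RNA interference. Strains that are kept apart for many generations collect sequence differences besides the mutation they are kept for, and crosses to wild type remove those that are not linked to it on the chromosome. Where the genes that differ lie on the map is therefore of interest in a pair of groups as alike as these.

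Total counts ran from 37345153 to 51287001 in the libraries labelled *eat-2* and from 37391231 to 45514002 in wild type 25 °C, with TMM scaling factors between 0.940 and 1.08. Levels are given as CPM, the counts of a gene scaled to the total counts of its library, and fold changes come from TMM-normalized counts and edgeR's quasi-likelihood test, with p-values adjusted after Benjamini and Hochberg. Some libraries of the series went against their labels or stood apart. The *ife-2* transcript was not low in the libraries labelled *ife-2*, which lay between 52.8 and 59.7 CPM. The summed level of 20 germ line genes was 203 to 273 CPM there and at least 1276 CPM in every other library. *osm-5* replicate 3 had a TMM factor of 0.427 over the 36 libraries. Neither *ife-2*-labelled nor *osm-5* libraries enter the test. Within the 12 libraries, *eat-2* replicate 2 had the lowest summed level of 6 yolk protein genes, 9889 CPM, and the other 11 ran from 24693 to 78489 CPM. Without it 10 genes were called higher and 18 lower.

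Since the pair was picked for its likeness, its place among the 15 pairs that the 6 labels allow is a description. The next pair in order, *osm-5* and wild type 25 °C, gave 1152 called genes (7.11%), and the pair of wild type 20 °C and *ife-2* gave the most, 14150 (85.1%). The libraries labelled *eat-2* differed from wild type 20 °C in 5185 genes (31.2%), and the wild-type groups differed from each other in 3947 (23.9%). No other pair had fewer called genes under an adjusted p below 0.05 (122 against 2756 in the next pair), with at least a 2-fold change (32 against 834), with scaling by total counts alone (44 against 733) or with all 36 libraries in one fit (37 against 2105). The next pair was again *osm-5* and wild type 25 °C, except in the fit of all 36 libraries. There it was wild type 20 °C and *eat-2*, and *osm-5* and wild type 25 °C had 5265 called genes. The fits of pairs with *osm-5* include its replicate 3, which stood apart. At an adjusted p below 0.05 the 122 genes were 0.749% of those tested, and 1675 genes (10.3%) had an unadjusted p below 0.05. In 197 genes (1.21%) the CPM of the groups did not overlap.

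**Figure D1:**
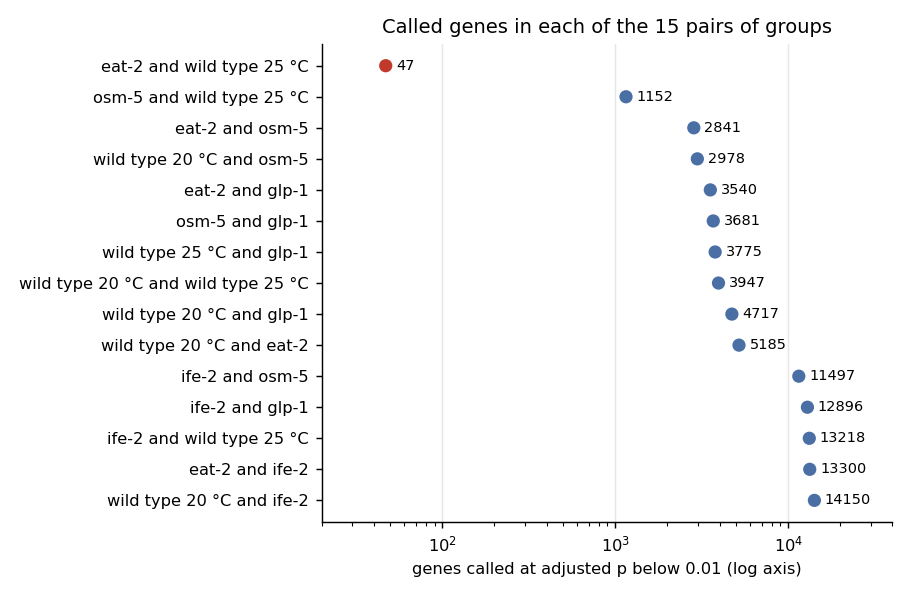
Genes called at an adjusted p below 0.01 in each of the 15 pairs of groups, with the count on a logarithmic horizontal axis and 1 point per pair. The pair of *eat-2* and wild type 25 °C stands at 47, and the other 14 pairs run from 1152 to 14150.

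The transcript of *eat-2* itself was rare in all libraries. It lay at 0.402, 0.640 and 0.787 CPM (lowest, median and highest of 6) in the libraries labelled *eat-2*, which is 15 to 34 counts, and at 0.244, 0.486 and 0.639 CPM in wild type 25 °C. The groups overlapped, with a log2 fold change of 0.26 (SE 0.229, adjusted p = 0.682). No change in its transcript was thus called, and with this SE a small change could have been missed. Since a receptor can lose its function without losing its transcript, the level does not check the label.

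*ife-2* (WBGene00002060), on the minus strand of chromosome X from 381385 to 382709 in WBcel235, had the smallest p-value of all genes. In the libraries labelled *eat-2* it lay at 3.47, 3.60 and 3.70 CPM (135 to 184 counts), and in wild type 25 °C at 27.3, 35.3 and 37.7 CPM. Every library labelled *eat-2* was below every library of wild type 25 °C, and the 6 values were close to one another, with an SD of 0.0764 CPM around a mean of 3.60. The log2 fold change was -3.29 (SE 0.0996, adjusted p = 5.04e-10). The lowest value in any of the other 24 libraries was 17.5 CPM in *osm-5* replicate 3, and the highest was 79.8 CPM in *glp-1*. The transcript that the label *ife-2* names was therefore low in the libraries labelled *eat-2*, for which reason these are called by their label throughout. Whether labels were exchanged between groups was not tested, so the genotype behind each label is not known from these data.

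None of the other 10 genes of cap binding and the initiation complex was called, beside 0.288% of all genes tested. *ife-1*, *ife-3*, *ife-4* and *ife-5*, the remaining eIF4E isoforms, had log2 fold changes of -0.10, -0.22, 0.12 and -0.09, with adjusted p-values from 0.591 to 0.738. *ifg-1*, which encodes the scaffold protein eIF4G, had a mean of 562 ± 85.1 CPM in the libraries labelled *eat-2* and 572 ± 76.4 CPM in wild type 25 °C (SD, n = 6 each). The median log2 fold change of the 11 genes was -0.09, beside 0.00 for all genes tested.

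*haf-6* (WBGene00001816, chromosome I from 1162880 to 1175809, minus strand) had the next smallest p-value. It lay at 6.83, 7.29 and 10.3 CPM in the libraries labelled *eat-2* and at 38.7, 41.3 and 46.4 CPM in wild type 25 °C. The groups did not overlap, and *eat-2* replicate 3 was the highest of its group. The log2 fold change was -2.49 (SE 0.114, adjusted p = 5.71e-08). In the other 24 libraries *haf-6* was between 19.2 and 44.0 CPM, so that the libraries labelled *eat-2* were below all of them. The gene overlaps Y48G8AL.7 on the opposite strand, which was not called (log2 fold change -0.11, adjusted p = 0.739). Use of the strand in counting is not given in the sources used here. Of the called genes, 10 overlap another annotated gene. They are *haf-6*, T13F3.6, C48B4.12, *nlp-26*, *try-8*, *gst-4*, F27B3.7, *try-11*, *pph-7* and F09C6.10.

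Of 8 other transporters of the same class, *haf-1*, *haf-2*, *haf-3*, *haf-4*, *haf-7*, *haf-9*, *hmt-1* and *abtm-1*, none was called, and their log2 fold changes ran from -0.20 to 0.13. Beside 0.288% of all genes tested, none was called either among 42 genes of RNA interference and small RNA pathways. Their median log2 fold change was 0.03, with extremes of -0.20 for *rde-4*, which encodes a protein that binds double-stranded RNA, and 0.45 for *rrf-2*, which encodes an RNA-dependent RNA polymerase (adjusted p = 0.613 and 0.291). *dcr-1*, which encodes Dicer, was at 146 ± 19.4 CPM in the libraries labelled *eat-2* and at 107 ± 29.0 CPM in wild type 25 °C (SD, n = 6 each). No call was made for it at a log2 fold change of 0.38 (adjusted p = 0.432).

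C03G6.18 (WBGene00005646, chromosome V from 7382021 to 7383309, minus strand) is annotated as a pseudogene and is named *srp-5*, a member of the serpin family of protease inhibitors, in RefSeq. It had 332, 434 and 499 counts (lowest, median and highest) in the libraries labelled *eat-2*, or 8.80 to 11.3 CPM. In wild type 25 °C it had 0 counts in 4 libraries, 3 in replicate 2 and 5 in replicate 5, and no library of the other 24 had more than 7. The libraries labelled *eat-2* were thus above all 30 others by a wide margin. Summed over each group, 2535 counts stood against 8, a ratio of counts per total of 307 with an exact 95% interval of 156 to 713, which covers counting error only. The fitted log2 fold change was 8.08 (SE 0.417, adjusted p = 1.91e-07), and its size depends on the prior count given to the libraries at 0.

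*srp-6*, which lies 923 bases from C03G6.18 and encodes a serpin that protects cells from necrosis, moved the other way. It was between 14.1 and 17.7 CPM in the libraries labelled *eat-2* (mean 16.3 ± 1.32) and between 23.3 and 29.4 CPM in wild type 25 °C (mean 24.9 ± 2.41, SD, n = 6 each). The groups did not overlap, and the log2 fold change was -0.68 (SE 0.0733, adjusted p = 4.54e-04). The other 5 serpin genes tested were not called, with log2 fold changes between -0.99 for *srp-2* (adjusted p = 0.113) and 0.15 for *srp-8*. With 0.288% of all genes tested called, so few genes are likely to hold no call. Of C03G6.17, the tested gene on the other side of C03G6.18, the log2 fold change was -0.14 (adjusted p = 0.705). Whether reads of C03G6.18 and of its functional relatives can be confused in the counting was not tested.

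**Figure D2:**
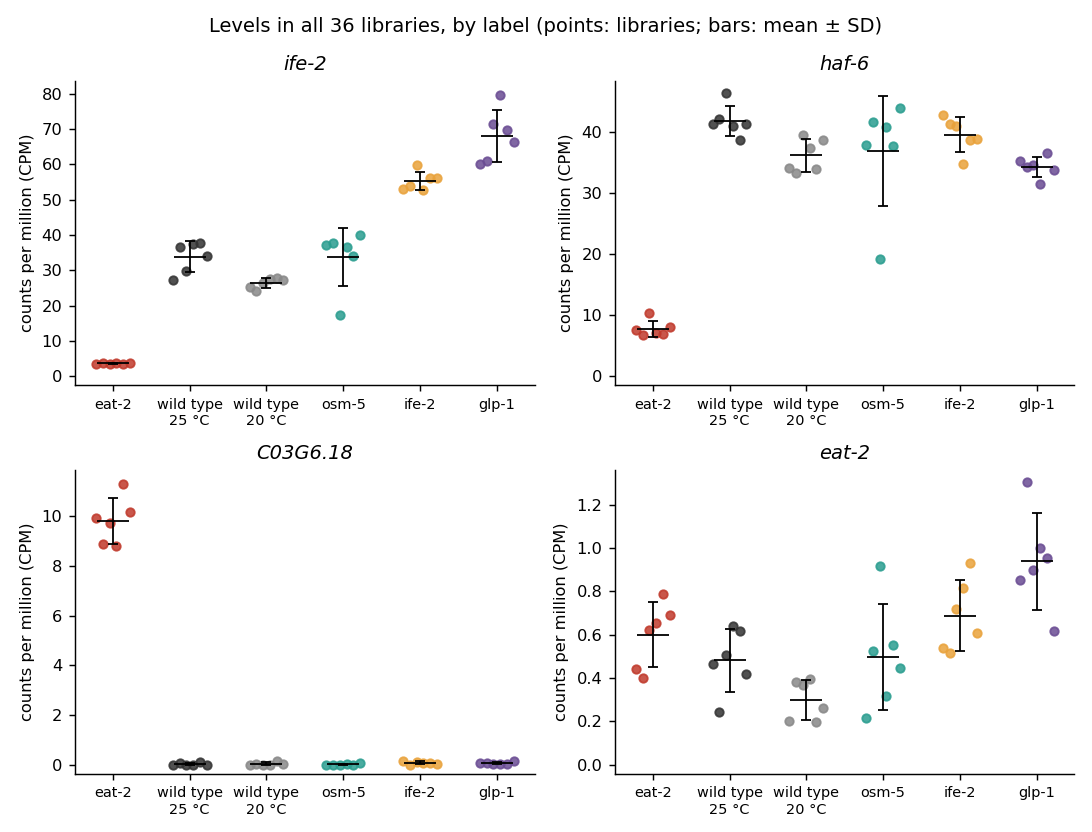
CPM on the vertical axis for *ife-2*, *haf-6*, C03G6.18 and *eat-2* in each of the 36 libraries, grouped by label along the horizontal axis. Points are libraries and bars are the mean ± SD of 6. The 6 libraries labelled *eat-2* were below all others for *ife-2* and *haf-6* and above all others for C03G6.18, and *eat-2* overlapped with wild type 25 °C.

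The next group of genes lay side by side near the right end of chromosome V, between 17637982 and 17656654. From left to right these were F57G4.4, *fbxa-192*, F59A1.9 and F59A1.8, all on the minus strand and with no other tested gene between them. *fbxa-192* encodes a protein of the F-box A family, whose members bring proteins to ubiquitin ligases, and the other 3 are annotated as pseudogenes. All 4 fell, by 1.89, 2.41, 3.16 and 1.14 on the log2 scale in that order.

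F59A1.9 was at 0.403, 0.477 and 0.696 CPM (16 to 35 counts) in the libraries labelled *eat-2* and at 3.37, 4.61 and 5.66 CPM in wild type 25 °C (SE of the log2 fold change 0.184, adjusted p = 6.86e-07). *fbxa-192* was at 0.556, 0.829 and 1.29 CPM against 3.98, 4.31 and 4.88 CPM (SE 0.172, adjusted p = 7.36e-06). Neither gene had a library of one group within the range of the other. F57G4.4 was at 0.234, 0.324 and 0.701 CPM against 0.900, 1.35 and 1.64 CPM (SE 0.263, adjusted p = 0.00371), and it was called in only 3 of the 12 fits that leave out 1 library. F59A1.8 was at 1.06, 1.46 and 1.54 CPM against 2.19, 2.98 and 3.93 CPM (SE 0.147, adjusted p = 0.00209).

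Next to these genes lies *fbxa-108*, another F-box A gene, which was just outside the threshold with a log2 fold change of -1.05 (SE 0.172, adjusted p = 0.0111). Of the 111 *fbxa* genes tested, *fbxa-192* was the only one called (0.901%, beside 0.288% of all genes tested), and their median log2 fold change was -0.01. The 4 genes also varied among the other labels. *fbxa-192* was highest in wild type 20 °C, at 17.3 to 20.8 CPM, and F57G4.4 and F59A1.9 were highest there too, at 4.12 to 5.55 and 6.37 to 8.29 CPM. In the libraries labelled *ife-2* none of the 4 exceeded 0.0257 CPM, and *glp-1* was low as well, with 0.683 to 1.12 CPM of *fbxa-192*. Wild type 25 °C lay below wild type 20 °C without overlap in F57G4.4, *fbxa-192* and F59A1.9, and overlapped with it in F59A1.8.

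A second adjacent pair was found on chromosome III, where C09E7.8 (6553627 to 6558587) and the pseudogene F27B3.7 (6559097 to 6563666) are 510 bases apart. C09E7.8 was at 10.8, 13.3 and 16.7 CPM in the libraries labelled *eat-2* and at 22.9, 28.5 and 35.4 CPM in wild type 25 °C, a log2 fold change of -1.18 (SE 0.115, adjusted p = 1.77e-04) without overlap. F27B3.7 was between 4.66 and 8.67 CPM (mean 6.97 ± 1.44) against 8.21 to 20.2 CPM (mean 15.4 ± 4.11, SD, n = 6 each). It fell by 1.21 on the log2 scale (SE 0.181, adjusted p = 0.00572). It was the only one of the 47 genes whose groups overlapped, through wild type 25 °C replicate 3, and it was called in 1 of the 12 fits that leave out 1 library. C09E7.7, on the other side of C09E7.8, had a log2 fold change of 0.43 (adjusted p = 0.136).

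Other falls were in single named genes. *lec-9*, which encodes a galectin, was at 99.3, 106 and 158 CPM in the libraries labelled *eat-2* and at 216, 243 and 273 CPM in wild type 25 °C. Its groups did not overlap, and *eat-2* replicate 2 was the highest of its own. The log2 fold change was -1.15 (SE 0.123, adjusted p = 4.16e-04). None of the other 11 galectin genes was called, beside 0.288% of all genes tested. So few genes are likely to hold no call, and this is no result about the family. *gst-4*, a glutathione S-transferase and a much used target of the stress factor SKN-1, was at 7.99, 11.6 and 13.5 CPM against a median of 16.6 and a highest of 19.2 CPM, without overlap, a log2 fold change of -0.67 (SE 0.0995, adjusted p = 0.00572). It was called in 2 of the 12 fits that leave out 1 library, and it overlaps *dhs-12* on the same strand, which was not called (adjusted p = 0.597).

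*cpi-1*, which encodes a cystatin that inhibits cysteine proteases, was at 28.3 to 37.5 CPM against 46.4 to 52.0 CPM. *clec-209*, a C-type lectin gene, was at 62.1 to 76.8 CPM against 101 to 116 CPM, and neither gene overlapped between the groups. *ugt-1* and *ugt-63* encode enzymes that attach sugars to small molecules, and they fell by 0.64 and 1.18 on the log2 scale, the only 2 called of 61 genes of their family (3.28%, beside 0.288% of all genes tested). The neuropeptide-like gene *nlp-26* fell by 0.80. These 5 genes were called in 7, 8, 0, 3 and 2 of the 12 fits that leave out 1 library, in the order in which they are named.

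The cuticle collagen genes *col-7* and *col-62* lie 530 bases apart on chromosome I. *col-7* was at 158, 181 and 223 CPM in the libraries labelled *eat-2* and at 255, 273 and 342 CPM in wild type 25 °C, a log2 fold change of -0.70 (SE 0.110, adjusted p = 0.00806). The libraries of wild type 25 °C were above all 30 others, which made *col-7* the only called gene in which that group stood apart from the rest. The call of *col-7* was kept in 6 of 19 other fits, which leave out 1 library or change the tool, scaling, filter or design. *col-62* was at 194, 205 and 242 CPM against 282, 298 and 369 CPM (log2 fold change -0.61, adjusted p = 0.00953), and *fln-2*, which encodes a filamin, at 112, 133 and 157 CPM against 167, 213 and 300 CPM (log2 fold change -0.80, adjusted p = 0.00572). Of 136 collagen genes tested, *col-7* and *col-62* were the only ones called (1.47%, beside 0.288% of all genes tested), and the median log2 fold change of the family was 0.05.

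*nspc-1* and *nspc-2*, neighbours on chromosome X that encode short peptides of a nematode-specific family, were 363 bases apart. *nspc-2* was at 7.07, 9.64 and 10.8 CPM against 18.2, 22.3 and 26.5 CPM, a log2 fold change of -1.34 (SE 0.122, adjusted p = 9.01e-05), and the libraries labelled *eat-2* were below all 30 others. *nspc-1* had a log2 fold change of -0.74 (SE 0.0900, adjusted p = 0.00125). These were 2 of the 17 *nspc* genes tested (11.8%, beside 0.288% of all genes), and *nspc-5* had a log2 fold change of -1.66 without a call (adjusted p = 0.0387). The family was grouped by name after the calls were known, so its higher share is no result about it. Reads may be shared between such similar genes, so the split between *nspc-1* and *nspc-2* is uncertain.

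Of the 12 largest falls, 6 more were in genes known only by a sequence name. T01G5.8 (chromosome V from 15116268 to 15116595) was at 0.378, 0.604 and 0.735 CPM against 1.73, 2.61 and 2.94 CPM, a log2 fold change of -2.15 (SE 0.160, adjusted p = 1.02e-05). ZK6.6 (chromosome V from 388697 to 391600) was at 1.03, 1.31 and 1.70 CPM against 3.17, 4.27 and 5.30 CPM, a log2 fold change of -1.77 (SE 0.157, adjusted p = 7.79e-05). Both were free of overlap between the groups and were called whichever library was left out. T13F3.6 (16270300 to 16271221) was at 42.0, 52.2 and 67.4 CPM against 88.8, 127 and 171 CPM, a log2 fold change of -1.35 (SE 0.162, adjusted p = 0.00113), and Y39B6A.27 at 1.26, 1.48 and 1.83 CPM against 3.13, 3.61 and 4.58 CPM, with the same log2 fold change after rounding (SE 0.142, adjusted p = 3.79e-04). The pseudogene Y43D4A.10 on chromosome IV and Y47D7A.6 on chromosome V fell by 1.97 and 1.54 on the log2 scale, from 14 to 40 counts per library in the former and 164 to 259 in the latter. They were called in 8 and 3 of the 12 fits that leave out 1 library. The remaining 5 falls were in *gakh-1*, a kinase gene, and in C39B5.5, C49F5.7, Y69A2AR.25 and *ldp-1*, with log2 fold changes of -0.80, -0.55, -1.06, -1.03 and -0.44. In C49F5.7 the libraries labelled *eat-2*, at 18.2 to 23.6 CPM, were below all 30 others.

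Among the 15 genes that rose, only C03G6.18, T02G5.4 and *pph-7* had a mean above 2 CPM in the libraries labelled *eat-2*. T02G5.4, an annotated pseudogene on chromosome II from 7082102 to 7084083, was at 16.6, 21.1 and 24.7 CPM in the libraries labelled *eat-2* and at 8.42, 10.4 and 11.6 CPM in wild type 25 °C. The groups did not overlap, and the log2 fold change was 0.99 (SE 0.0980, adjusted p = 2.04e-04). *pph-7*, which encodes a protein phosphatase, was at 14.4, 18.8 and 21.4 CPM against 9.28, 10.8 and 12.4 CPM, a log2 fold change of 0.71 (SE 0.113, adjusted p = 0.00850). It was called in 2 of the 12 fits that leave out 1 library, and it overlaps *parp-1* on the opposite strand, which was not called (adjusted p = 0.842).

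The other 12 genes that rose were rare, and no library labelled *eat-2* had more than 97 counts of any of them. They hold the C-type lectin genes *clec-92* and *clec-219*, the trypsin-like protease genes *try-8*, *try-11* and *try-13*, *fipr-17*, *srlf-18*, Y47D7A.12, C48B4.12, C05B5.11, F09C6.10 and F18E9.7. C48B4.12 had 11, 23 and 33 counts in the libraries labelled *eat-2* and 0, 1.5 and 4 counts in wild type 25 °C, and *clec-219* had 19, 30.5 and 51 counts against 0, 1.5 and 7. Neither overlapped between the groups. Summed over 6 libraries, the ratio of counts per total was 13.2 (95% interval 6.96 to 28.1) for C48B4.12, 11.8 (6.99 to 21.6) for *clec-219* and 10.8 (5.96 to 21.3) for *clec-92*, again for counting error only. The fitted log2 fold changes of the 12 genes ran from 1.62 for *try-13* to 3.56 for C48B4.12, with adjusted p-values from 9.70e-04 for *clec-92* and Y47D7A.12 to 0.00881 for F18E9.7.

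Their summed counts were 270, 388 and 596 in the libraries labelled *eat-2* and 23, 72 and 100 in wild type 25 °C, without overlap. Outside the comparison the sum was 4922 counts in wild type 20 °C replicate 5 and 1105 in replicate 6, and each of the 12 genes was higher there than in the other 4 libraries of that label. In *osm-5* replicate 3 the genes parted. Its sum of 2410 came mostly from *fipr-17* (1036), C05B5.11 (686), F09C6.10 (368), *clec-92* (230) and *clec-219* (53), and the other 7 had 0 to 10 counts. The other 4 libraries of wild type 20 °C had 68 to 126 counts, the other 5 of *osm-5* had 99 to 251, and those labelled *ife-2* had 83 to 457 counts in sum. The summed level thus varied by far more within wild type 20 °C than it differed between the groups compared. What sets it in single libraries was not tested. Of the 12, *clec-92* and Y47D7A.12 were called whichever library was left out, and F09C6.10 and F18E9.7 lost their call whichever library was left out.

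The families of these genes were counted beside the 0.288% called of all genes tested. Of 132 *clec* genes tested, 2 rose and 1 fell (2.27%), with a median log2 fold change of 0.08. Of 14 *try* genes, 3 rose (21.4%), all 3 from 1 stretch of chromosome V, and the median was 0.05. Of 15 *fipr* genes, which are named for induction by fungi, 1 rose (6.67%) and the median was -0.45. *fipr-8* and *fipr-11*, with log2 fold changes of -0.64 and -0.66, were outside the threshold (adjusted p = 0.0111 and 0.0144). These families were grouped by name after the calls were known, so their higher shares are no result about them.

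**Figure D3:**
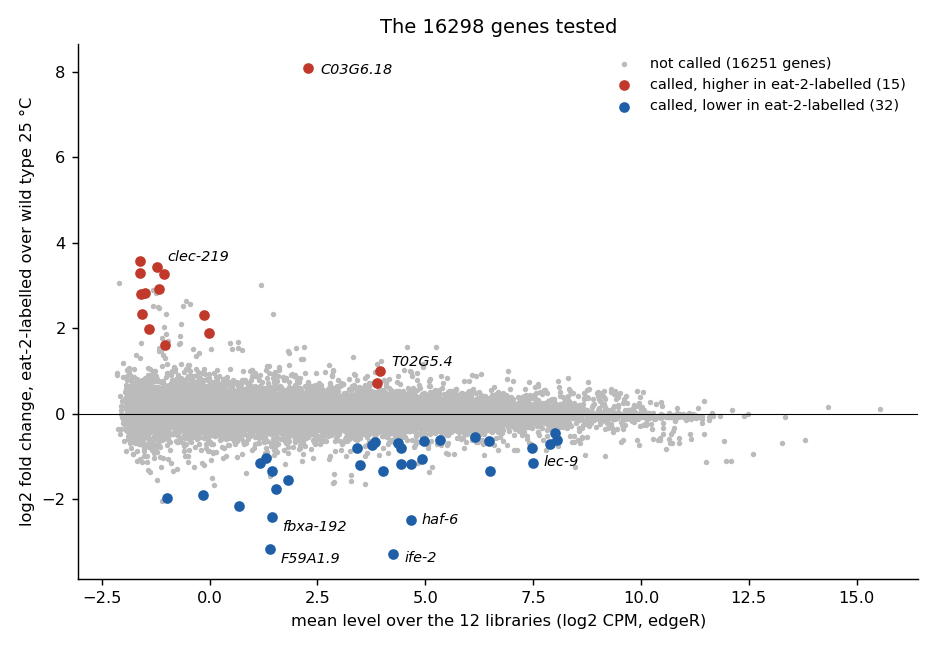
The log2 fold change of the libraries labelled *eat-2* over wild type 25 °C (vertical axis) against the mean level over the 12 libraries in log2 CPM (horizontal axis) for the 16298 genes tested. Grey points were not called, red points are the 15 called higher and blue points the 32 called lower. C03G6.18 stands alone at 8.08, and 12 of the 15 genes called higher lie at the low end of the level axis.

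Over the genome, the 47 genes were spread across the 6 chromosomes. Chromosome V held 22 of them, or 46.8% of the called genes and 0.676% of the 3253 tested on it. Chromosome X held 8 (0.349% of 2295), III held 6 (0.246% of 2443), I and IV held 5 each (0.191% of 2612 and 0.179% of 2801) and II held 1 (0.0361% of 2767). None of the 14 tested genes of the mitochondrial DNA was called. In windows of 1 Mb, 32 of 104 windows with tested genes held a called gene, 23 of them only 1. The fullest was chromosome V from 7000001 to 8000000, with 5 of 173 tested genes (C03G6.18, *srp-6*, *try-13*, *try-11* and *try-8*), followed by V from 17000001 to 18000000 with 4 of 73 and X from 8000001 to 9000000 with 3 of 154. The *try* genes in the fullest window are among the rare genes that rose.

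*eat-2* itself lies on chromosome II (14166878 to 14171658), where T02G5.4, about 7 Mb away, was the only called gene. None of the 295 tested genes within 1 Mb of *eat-2* was called, and the nearest to the threshold was *mltn-10*, with a log2 fold change of -0.71 (adjusted p = 0.0135). *ife-2* and *haf-6* were also alone. None of 171 tested genes within 1 Mb of *ife-2* and none of 241 within 1 Mb of *haf-6* was called. These counts stand beside 0.288% called of all genes tested. Within 2 Mb there was still none around *ife-2* and none of 456 around *eat-2*, and 1 of 424 around *haf-6*, which was *pph-7*. The smallest adjusted p within 1 Mb was 0.133 near *ife-2* (C05D9.9) and 0.186 near *haf-6* (Y50C1A.2). The genes with the smallest p-values, *ife-2*, *haf-6* and C03G6.18, lay on chromosomes X, I and V. On the chromosome of *eat-2*, T02G5.4 had an adjusted p of 2.04e-04 and was called in every fit.

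Close neighbours were examined within 100 kb. Around *ife-2*, 21 tested genes had log2 fold changes between -0.76 and 0.75 and none was called, and around *haf-6*, 20 had values between -0.35 and 0.46 and none was called. C03G6.18 had 4 called genes among 35, *srp-6* next to it and the 3 *try* genes between 56.8 and 71.0 kb away. The *try* genes are among the rare genes that were also high in wild type 20 °C replicates 5 and 6. *try-11* and *try-8* kept their calls in 5 and 10 of the 19 other fits. *fbxa-192* had 3 among 22, all within 10.5 kb, and C09E7.8 had 1 among 34. Of the 47 genes, 17 had another called gene within 50 kb and 30 had none. These 17 formed 10 pairs of successive genes, of which 8 changed in the same direction, and the exceptions were C03G6.18 with *srp-6* and Y47D7A.6 with Y47D7A.12. Not all of these pairs are independent, since *try-11* and *try-8* have 0 bases between them and *nspc-1* and *nspc-2* may share reads. The share of all tested genes with a called gene within 50 kb was not counted. Called genes thus occurred both alone (*ife-2*, *haf-6*, T02G5.4) and in runs of neighbours (F57G4.4 to F59A1.8). Sequence variants were not analysed here, so whether a changed gene carries one, or lies on a stretch of other origin, was not tested.

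**Figure D4:**
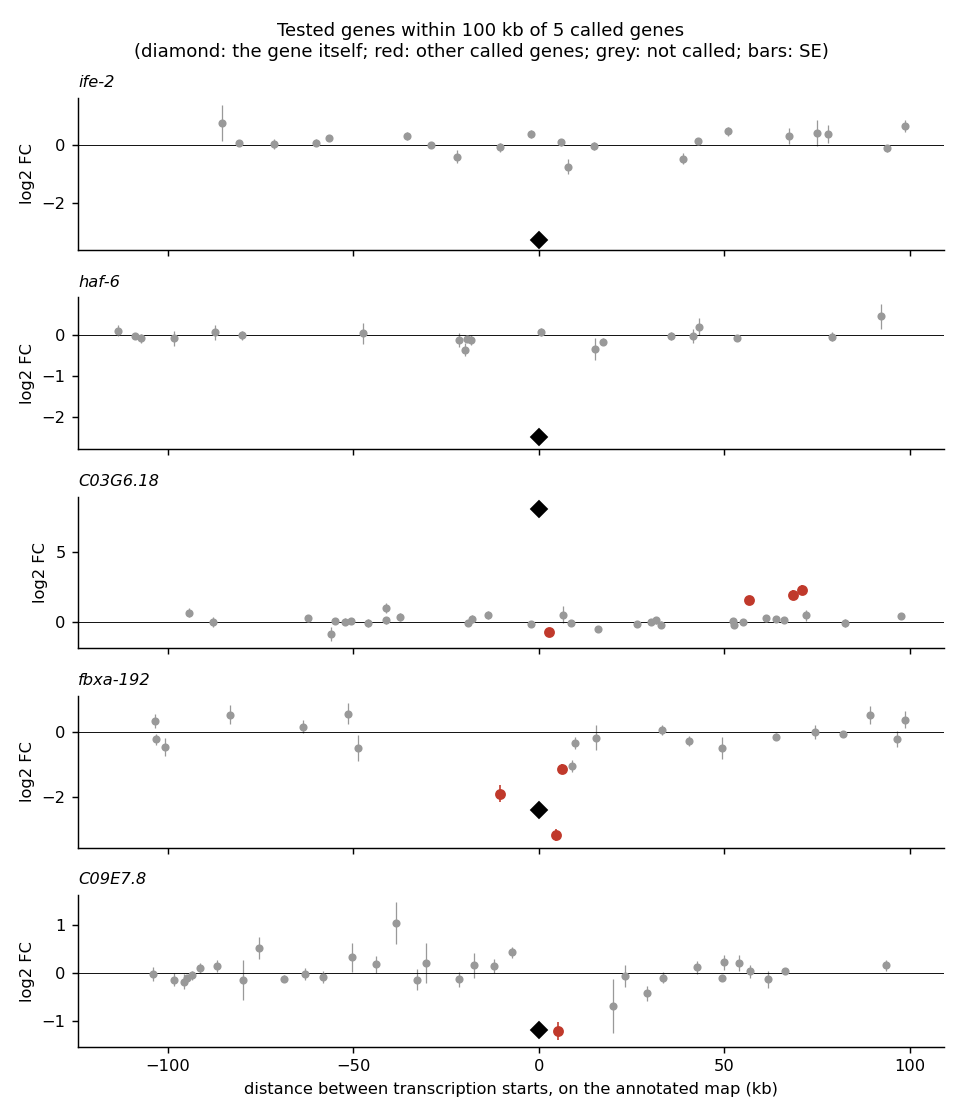
The log2 fold change with its SE (vertical axis) of tested genes within 100 kb of *ife-2*, *haf-6*, C03G6.18, *fbxa-192* and C09E7.8, against the distance in kb between transcription starts (horizontal axis). Black diamonds are the named genes, red points other called genes and grey points genes that were not called. No neighbour of *ife-2* or *haf-6* was called, whereas *fbxa-192* stands among 3 and C09E7.8 beside 1.

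The 47 genes were then set beside the 24 libraries that took no part in the test. The libraries labelled *eat-2* were above all 30 others for C03G6.18 and below all 30 for *ife-2*, *haf-6*, *nspc-2* and C49F5.7. With *osm-5* replicate 3 set aside they were below the other 29 also for Y39B6A.27, *srp-6* and *gakh-1*. Wild type 25 °C was above all others for *col-7* alone and below all others for none of the 47. Compared with wild type 20 °C, 14 genes overlapped in the libraries labelled *eat-2* while wild type 25 °C was apart, *lec-9*, ZK6.6, T13F3.6, *ugt-63* and *gst-4* among them. In 12 genes wild type 25 °C overlapped with wild type 20 °C while the libraries labelled *eat-2* were apart, which include *ife-2*, *haf-6*, C03G6.18 and *fln-2*. In 8 genes both groups were apart from wild type 20 °C, and in 13 both overlapped with it, 12 of these being the rare genes that rose. Most of these 12 overlapped only through wild type 20 °C replicates 5 and 6, and *try-11* also through others. The same counts were not made over all genes tested. Calling had already picked genes that part the groups compared, so the counts are no result about the called genes.

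*lec-9* shows the first of these patterns. It was at 104, 106 and 122 CPM in wild type 20 °C, 99.3, 106 and 158 CPM in the libraries labelled *eat-2* and 216, 243 and 273 CPM in wild type 25 °C. T02G5.4 had 603, 669.5 and 761 counts in wild type 20 °C, beside 620, 956.5 and 1116 in the libraries labelled *eat-2* and 315, 437.5 and 528 in wild type 25 °C. Since wild type 20 °C also differs from the libraries labelled *eat-2* in genotype and from wild type 25 °C in labelled temperature, the positions of the groups are given as levels only. In the libraries labelled *ife-2*, T02G5.4, *pph-7* and C09E7.8 were at 1.05 to 1.85, 0.762 to 0.954 and 2.73 to 6.37 CPM, below every other library.

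**Figure D5:**
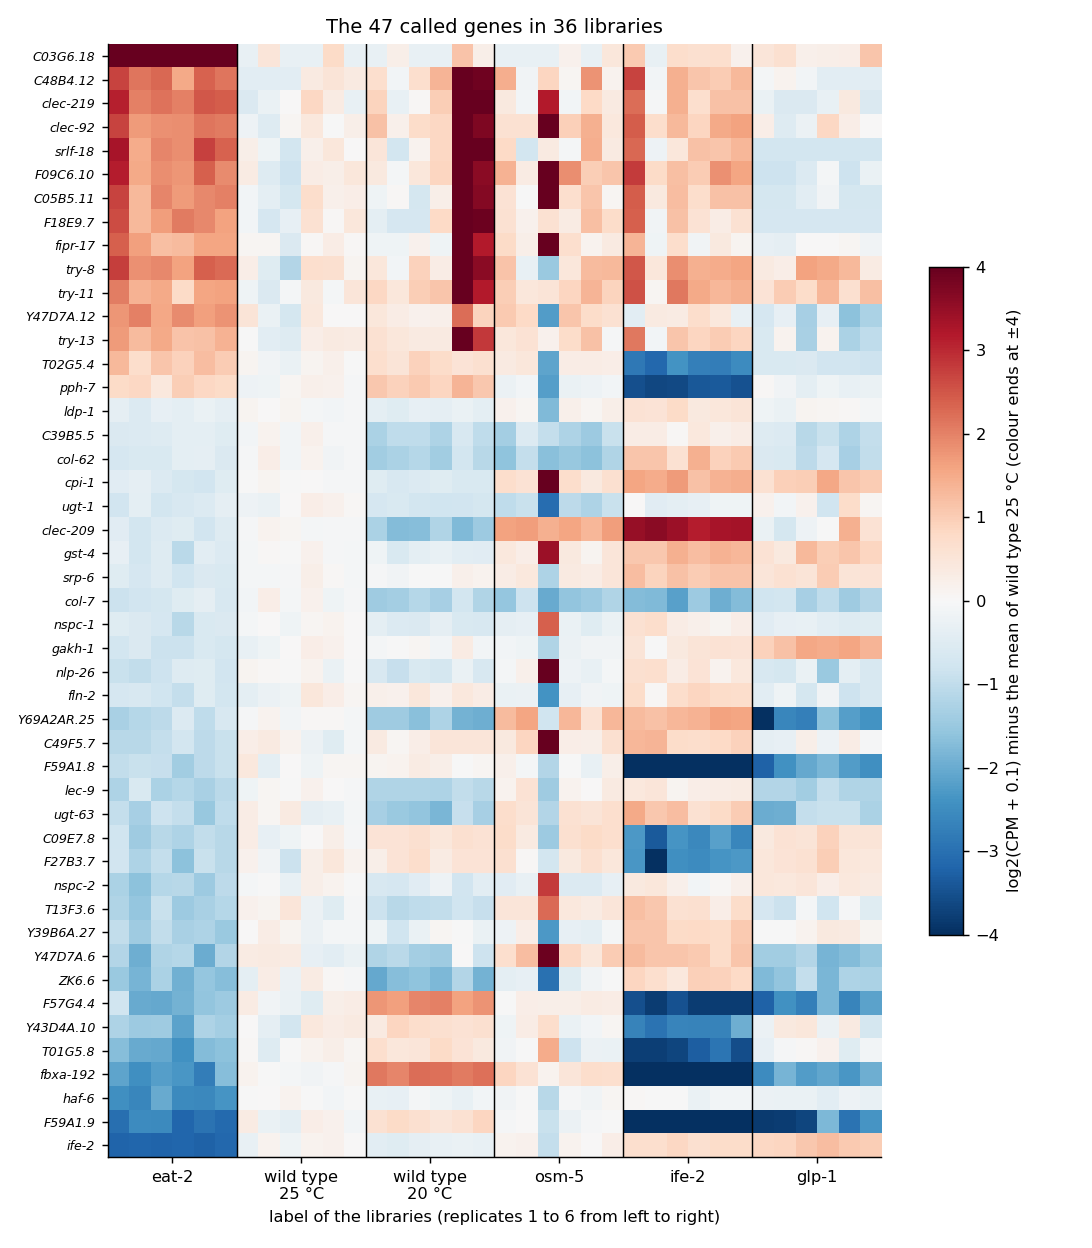
The 47 called genes (rows, ordered by log2 fold change) in the 36 libraries (columns, grouped by label, replicates 1 to 6 from left to right). Colour is log2(CPM + 0.1) minus the mean of wild type 25 °C, red above and blue below it, with the scale ending at 4 in each direction. Most of the rare genes that rose are dark red in wild type 20 °C replicates 5 and 6, *osm-5* replicate 3 stands apart in many rows, and *ife-2*, *haf-6* and C03G6.18 are set off in the libraries labelled *eat-2*.

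Lists of genes were counted for the tissues and responses that a feeding mutation or a change of temperature could touch. No gene was called among 20 of the germ line, 15 of oocytes and eggshell, 18 of sperm, 10 of the intestine, 11 of neurons, 10 of body wall muscle and 17 of the pharynx and feeding. Since 0.288% of all genes tested were called, lists this short are likely to hold none, and the lack of calls is no result about these tissues. The median log2 fold changes of these 7 lists lay between -0.31 (oocytes and eggshell) and 0.02 (neurons), beside 0.00 for all genes tested. *myo-2*, a myosin heavy chain of pharyngeal muscle, was at 370 ± 55.8 CPM in the libraries labelled *eat-2* and at 373 ± 72.3 CPM in wild type 25 °C (SD, n = 6 each).

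The 6 yolk protein genes *vit-1* to *vit-6* had the lowest median, -1.02, and none was called. *vit-1* had the lowest value, with 1843 ± 1015 CPM in the libraries labelled *eat-2* and 3886 ± 1506 CPM in wild type 25 °C (SD, n = 6 each), and its log2 fold change was -1.13 (SE 0.404, adjusted p = 0.324). The summed level of the 6 genes ran from 9889 to 50114 CPM and from 34169 to 78489 CPM, so the groups overlapped. In contrast, the median of 25 cuticle and molting genes was 0.60, and *col-7* was the only one called. The summed level of these 25 was highest in *eat-2* replicate 2, at 9646 CPM, the library with the least yolk protein transcript, and ran from 2968 to 6147 CPM in the other 11. The part of developmental stage in the called genes was not tested.

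Among 32 genes of dietary restriction, lipid metabolism and autophagy none was called. *pha-4*, a FoxA factor needed for the long life of *eat-2* mutants, had a log2 fold change of 0.09 (adjusted p = 0.792), and the lysosomal lipase gene *lipl-1* the highest, 1.55 (SE 0.473, adjusted p = 0.229), with 6.69 ± 4.86 CPM against 2.23 ± 0.471 CPM (SD, n = 6 each). Of 19 heat shock genes none was called, and the median was -0.07. The inducible chaperone gene *hsp-70* was at 4.23 ± 3.58 CPM in the libraries labelled *eat-2* and at 2.92 ± 1.55 CPM in wild type 25 °C (SD, n = 6 each), with an adjusted p of 0.728. None of 9 genes of the intracellular pathogen response was called. With 0.288% of all genes tested called, lists as short as these are likely to hold no called gene. Of 10 further genes, which are stress targets of the study together with *atfs-1* and *hsp-60*, *gst-4* alone was called (10%, beside the same 0.288%).

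The study's own lists of stress response targets were set beside the same 0.288% of all genes, of which 0.196% fell. Of 1155 tested DAF-16 targets 6 fell and none rose (0.519%), and of 984 SKN-1 targets 5 fell (0.508%). Of 335 genes of the mitochondrial unfolded protein response 1 rose, which was C03G6.18, and 1 fell, which was *gst-4* (0.597%). The list of the cytosolic unfolded protein response had 4 of 1590 (0.252%), that of innate immunity 1 of 270 (0.370%) and that of antioxidant genes 1 of 68 (1.47%). None was called of 48 HIF-1 targets and of 148 genes of the endoplasmic reticulum response. Their medians lay between -0.07 and 0.05. *gst-4* is counted in 4 of these lists, and the shares above that of all genes rest on 1 to 6 called genes each.

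The calls nearest the threshold were *col-62* and *ugt-1* inside it (adjusted p = 0.00953 for both) and *fipr-8* and *fbxa-108* outside (0.0111 for both). The number of called genes moved with single libraries. It was lowest without wild type 25 °C replicate 6, when 4 genes were higher and 15 lower, and it was 20 in all without *eat-2* replicate 6 and 23 without *eat-2* replicate 3. The same 19 genes were called in all 12 fits that leave out 1 library. Of these, 9 were also called in all 7 fits with another tool, scaling, filter or design. Those 9 were *ife-2*, *haf-6*, C03G6.18, F59A1.9, *fbxa-192*, T01G5.8, C09E7.8, T02G5.4 and *lec-9*.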

How the data were processed

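The 36 libraries of polyadenylated whole-worm RNA were run over 3 flowcells, each holding all of them. The authors trimmed reads with cutadapt where needed, checked quality by STAR alignment to WBcel235 (Ensembl release 90) and quantified with Salmon, and the values they deposited are whole-number counts per gene, summed from transcripts with tximport and not normalized. Versions of these tools are not given in the sources used here. Estimated counts can split reads between similar genes. Names and positions come from Ensembl release 115 of that build, which held 45842 of the 46093 identifiers. The name *srp-5* was taken from RefSeq.

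The 6 libraries labelled *eat-2* were compared with the 6 labelled wild type 25 °C in R 4.3.3 with edgeR 4.0.16, using glmQLFit, glmQLFTest, TMM factors and Benjamini-Hochberg adjustment over 16298 genes. A gene was called at an adjusted p below 0.01. Standard errors are the log2 fold change divided by the square root of F. The test was checked on simulated data. DESeq2 1.42.0 was an alternative. The counts are described with exact intervals that cover counting error only.

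The members and gene lists were chosen with earlier results of these data known. Named by rule were *ife-2*, *haf-6* and *eat-2*, the 12 largest rises and 12 largest falls with a mean of at least 10 counts in the higher group and no overlap, called genes within 1 Mb of the first 3 and called members of the lists. All other names were added after their values were seen, so that each called gene is accounted for.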

Additional observations from a re-analysis of the deposited data

Results flagged for a closer look

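Samples that stood far from the other 5 of their group were looked for in the 27 genes named by rule and the summed level of the rare genes that rose, in both groups. In 56 groups of 6 values, 6 had a highest or lowest library farther from the nearest other than 0.625 of the group's range, and chance alone gives about 1 in 20. *haf-6* in *eat-2* replicate 3 was at 10.3 CPM, the highest of its group. *clec-219*, *clec-92* and *fipr-17* in *eat-2* replicate 1 were at 1.19, 0.842 and 0.888 CPM, each the highest of its group, and that library also had the largest sum within its group of the rare genes that rose, 596 counts. *fipr-17* in wild type 25 °C replicate 3 was at 0.0267 CPM, which is 1 count, and the pseudogene Y43D4A.10 in *eat-2* replicate 4 was at 0.0756 CPM, which is 3 counts.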

How the results depend on the processing

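The counts of called genes, 15 higher and 32 lower, depended on the processing. DESeq2's Wald test called 53 and 131, an adjusted p below 0.05 gave 38 and 84, and at least a 2-fold change left 19 lower. With all 36 libraries in one fit 7 were higher. With the replicate number as a block 2 were higher and 9 lower. Correlations of deviations between same-numbered libraries ran from -0.576 to 0.475, and 0 of 6 correlated best with their own number. With so few libraries these values cannot decide whether the numbers pair them. Leaving out 1 library gave 4 to 13 higher and 15 to 35 lower. The higher count was 7, 8, 7 and 5 without *eat-2* replicates 1, 3, 5 and 6, and 7, 5 and 4 without wild type 25 °C replicates 1, 2 and 6. The lower count was 19, 18, 15, 20 and 15 without *eat-2* replicates 1, 2, 3, 5 and 6, and 18 and 15 without wild type 25 °C replicates 2 and 6. The causes, the smaller number of libraries among them, were not tested. Within 2 Mb of *haf-6* 1 gene was called, and within 1 Mb of *eat-2* 1 had an adjusted p below 0.05. The log2 fold changes of *ife-2* and *haf-6* stayed past the threshold in every fit and ran from -3.34 to -3.24 and from -2.59 to -2.44 without 1 library. For the other 24 genes named by rule, 41 of 168 values under other tools, scalings, filters or designs and 109 of 288 without 1 library were no longer past the threshold, and none changed direction. At this depth, changes in genes of a few counts per library were known only with wide intervals.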
